A study of Drosophila melanogaster with 8 samples.

Results

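The cap-binding translation factor genes of *Drosophila* and the eIF4E inhibitor *Thor* were examined in RNA-seq of whole adult testes. Members were chosen by name: 7 eIF4E-type genes (*eIF4E1*, *eIF4E3*, *eIF4E4*, *eIF4E5*, *eIF4E6*, *eIF4E7* and *eIF4EHP*), the scaffold genes *eIF4G1* and *eIF4G2*, and *Thor*. Of these 10 genes, 9 were matched by FlyBase identifier among the 14256 genes of the count table, and all 9 passed the filter on low counts. The identifier of *eIF4E3* matched no row, so *eIF4E3* is not analysed here. The series compared *Tj-Gal4* males with *Tj-Gal4/+; UAS-E(Pc) shRNA/+* males, called *Tj>E(Pc) shRNA*, both as adults at 5 days of age. Each genotype had 2 libraries, and each library came from 1 pair of testes. All 4 libraries carry the *Tj-Gal4* driver, which is active in somatic gonadal cells of the testis, the hub included, and the *shRNA* against the chromatin factor gene *Enhancer of Polycomb* [*E(Pc)*] was driven there. The control libraries carry no shRNA transgene by their label. Whole testes hold germ cells, cyst cells, hub cells and a muscle sheath together, and a lower transcript level in such bulk RNA from fewer cells of a type cannot be told apart from less RNA per cell.

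The eIF4F complex starts translation of most capped mRNAs. Its eIF4E subunit binds the 5′ cap, its eIF4G subunit is the scaffold that carries eIF4E and the helicase eIF4A, and eIF4G brings the small ribosomal subunit through eIF3. Thor, the fly 4E-BP, binds eIF4E at the surface that eIF4G uses and so blocks the complex, and it releases eIF4E when phosphorylated by the TOR kinase pathway. eIF4EHP binds the cap but does not assemble with eIF4G, and it represses chosen mRNAs. The fly genome holds several copies of these genes. *eIF4E1* is the general eIF4E gene and *eIF4G1* the general scaffold gene, while *eIF4G2* is known from male germ cells, where it is needed for meiotic division and spermatid differentiation. Because reads with a single alignment site were kept, reads shared by closely similar copies would not be counted, and the levels of the paralogs are uncertain to that extent.

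The libraries held between 3307767 and 6251181 counts assigned to genes, and the deepest was *Tj>E(Pc) shRNA* 1. No gene in any library exceeded 1 count per base of its merged exons: the densest gene of each library reached 0.924 to 0.965 counts per base. Counts of dense genes rose less with depth than those of sparse ones, and fold changes of dense genes were also taken with a depth trend removed and with counts converted from occupied positions to reads. The targeted gene *E(Pc)* went against the label. *Tj-Gal4* 1 and 2 held 854 and 1187 of its counts, and the libraries with the shRNA label 2685 and 1235, with a log2 fold change of 0.44 ± 0.18 (SE, adjusted p = 0.083, edgeR quasi-likelihood test). The RNA of whole testes, which includes germ cells without the driver, gave no lower level of the target, and every direction below is between libraries as labelled. Marker genes of 9 cell types were also read, beside 22.5% of all genes tested called higher and 11.4% called lower. Early germline markers were called higher in 6 of 9 tested, with a summed level of 391 to 417 CPM (counts scaled to a common library size) in *Tj-Gal4* and 663 in both labelled *Tj>E(Pc) shRNA* libraries. Their median density was 0.0965 counts per base, and 1313 of the 3444 genes at 0.02 to 0.1 were called higher. With the depth trend removed, which called 25.0% of all genes higher, 5 were called, and their median log2 fold change went from 1.47 to 1.39. Spermatocyte markers were called higher in 5 of 11, or 4 with the depth trend removed, at 836 to 860 against 974 to 1018 CPM. Spermatid markers were called lower in 2 of 14, at 1774 to 2324 against 1162 to 1856 CPM, which overlap. They are densely read, with a median of 0.734 counts per base, and their median log2 fold change of -0.44 became -0.20 with the depth trend removed. Cyst lineage markers, with 1 of 7 called each way, summed to 614 to 628 against 678 to 778 CPM. Of this sum *chinmo*, not called, held 332 and 309 against 457 and 439 CPM. *zfh1* was called higher at 1.57-fold and *so* lower at 0.38-fold, and *tj*, *eya*, *ptc* and *Socs36E* overlapped between genotypes. Hub markers, 2 of 3 called lower, summed to 216 to 239 against 148 to 166 CPM. Muscle sheath markers, 1 of 8 called lower, summed to 1676 to 1739 against 1365 to 1582 CPM. Accessory gland markers, of which 1 was tested and 0 called, summed to 45.2 to 51.7 against 52.6 to 59.2 CPM, and those of fat body and hemocytes, 1 of 5 called higher, to 173 to 221 against 159 to 274 CPM. Markers of the ejaculatory bulb and duct summed to 73.8 to 88.7 against 115 to 130 CPM and went opposite ways, with 3 of 4 called higher and *Ebp* called lower, at 0.31-fold. No marker that the table lists was at 0 in all 4 libraries. In the main comparison, the counts of spermatid and muscle sheath markers called lower, and of fat body and hemocyte markers called higher, were near the shares over all genes. With the depth trend removed, which called 21.0% of all genes lower, 5 of 8 muscle sheath markers were called lower. The part of cell composition in the results below was not tested.

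*eIF4E5*, *eIF4G2*, *eIF4E4*, *eIF4E7* and *eIF4E1* were the most densely read of the matched genes. Levels were compared between genes per length, as corrected RPKM (cRPKM), the library-scaled reads per kilobase that the authors computed after normalization. In the *Tj-Gal4* libraries *eIF4E5* was at 197.6 ± 34.5 cRPKM (SD, n = 2), *eIF4G2* at 186.9 ± 32.1, *eIF4E4* at 186.5 ± 31.4 and *eIF4E7* at 163.5 ± 13.7. The ranges of neighbours in this order overlapped across the 2 libraries. Within each library *eIF4E5* was the highest of these 4 genes, at 222.0 and 173.2 cRPKM, and *eIF4E7* the lowest, at 173.2 and 153.8. The order of *eIF4G2* and *eIF4E4* differed between the 2 libraries. *eIF4E1*, the general cap-binding gene, lay below them at 121.7 ± 12.8 cRPKM. *Thor* followed at 47.4 ± 4.03, *eIF4EHP* at 41.7 ± 1.04, *eIF4G1* at 29.4 ± 3.97 and *eIF4E6*, the lowest, at 21.7 ± 0.793 cRPKM, and the ranges of neighbours from *eIF4E7* down did not overlap. The general scaffold gene *eIF4G1* was thus read well below its male germline paralog *eIF4G2* in control testes.

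In labelled *Tj>E(Pc) shRNA* testes the upper 5 genes kept this order of means, from *eIF4E5* at 148.9 ± 42.5 cRPKM (SD, n = 2) to *eIF4E1* at 98.3 ± 19.4. The ranges of all neighbours among them overlapped across libraries. Within each library *eIF4E1* was the lowest of the 5, at 84.5 and 112.0 cRPKM, and *eIF4E7* the next lowest, at 107.5 and 142.8. Below them the order changed. *eIF4G1* stood first of the remaining 4 at 50.6 ± 0.549 cRPKM, followed by *eIF4E6* at 40.1 ± 2.26, *eIF4EHP* at 38.8 ± 0.313 and *Thor* at 38.8 ± 0.915. The last 3 genes did not differ beyond the range of their libraries. *eIF4E6* and *eIF4G1*, the lowest members of control testes, were therefore level with or above *eIF4EHP* and *Thor* in the labelled *Tj>E(Pc) shRNA* testes.

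**Figure D1:**
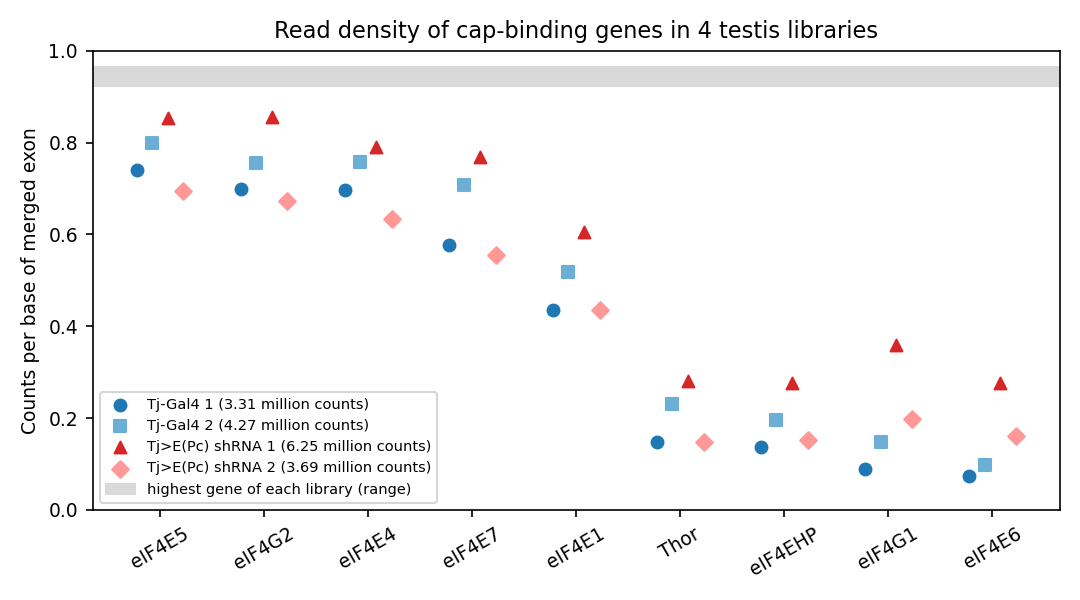
Counts per base of merged exon (vertical axis) of the 9 matched genes in each of the 4 libraries, ordered by mean cRPKM in *Tj-Gal4*; the grey band is the range of the densest gene of each library, 0.924 to 0.965. The 5 genes on the left sit between 0.435 and 0.855, nearer the band, and only *eIF4E6* and *eIF4G1* have both labelled *Tj>E(Pc) shRNA* libraries above both *Tj-Gal4* libraries.

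*eIF4E6* and *eIF4G1* were called higher in the labelled *Tj>E(Pc) shRNA* libraries, and no member was called lower. Over all genes tested, 22.5% were called higher and 11.4% lower, so 2 of 9 is close to the background. At an unadjusted p under 0.05, 1 member was lower by edgeR's quasi-likelihood test, 2 by DESeq2, and 1 each by edgeR's exact test and by limma on cRPKM, and none of these passed after adjustment. Both labelled *Tj>E(Pc) shRNA* libraries lay above both controls in CPM for 2 members and below both for 5, against 38.9% and 33.8% of all genes tested.

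*eIF4E6*, a short eIF4E paralog gene on chromosome arm 3R (FBgn0039622, 686 bp of merged exons), had 51 and 67 counts in the control pair. The labelled *Tj>E(Pc) shRNA* 1 and 2 had 189 and 111. Scaled to library size with TMM factors, these were 16.4 and 15.6 against 28.6 and 30.4 CPM. Both labelled *Tj>E(Pc) shRNA* libraries lay above both controls, and the replicates of each genotype were close to each other. The mean of 16.0 ± 0.541 CPM rose to 29.5 ± 1.31 CPM (SD, 2 libraries each), which is a log2 fold change of 0.88 ± 0.20 (SE) or 1.84-fold (adjusted p = 0.00933, edgeR quasi-likelihood test). With either control library left out the fold was almost the same, but the call was lost, with log2 fold changes of 0.90 (adjusted p = 0.051) without *Tj-Gal4* 1 and 0.85 (adjusted p = 0.057) without *Tj-Gal4* 2 by edgeR's quasi-likelihood test. *eIF4E6* made up 2.80% and 3.17% of the summed cRPKM of the 6 eIF4E-type genes in *Tj-Gal4* and 7.72% and 6.15% in the labelled *Tj>E(Pc) shRNA* libraries. *eIF4E1* held 16.4% to 17.0% of that sum in all 4 libraries.

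*eIF4G1*, the general scaffold gene, on chromosome 4 (FBgn0023213, 6583 bp), had 583 and 974 counts in *Tj-Gal4* and 2357 and 1305 in the labelled *Tj>E(Pc) shRNA* libraries. In CPM these were 187 and 226.6 against 356 and 357.5. The groups did not overlap, and the control libraries were farther apart than those labelled *Tj>E(Pc) shRNA*. The mean of 207 ± 28.1 CPM rose to 357 ± 1.01 CPM (SD, 2 libraries each), which is a log2 fold change of 0.79 ± 0.18 (SE) or 1.72-fold (adjusted p = 0.00811, edgeR quasi-likelihood test). The call was lost without either control library, at 0.64 (adjusted p = 0.255) without *Tj-Gal4* 1 and 0.94 (adjusted p = 0.078) without *Tj-Gal4* 2, and when a trend on gene length was removed, at 0.51 (adjusted p = 0.101, edgeR quasi-likelihood test in each case). *eIF4G1* is among the longest of the 9 genes.

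*eIF4G2*, the male germline scaffold gene on 3R (FBgn0260634, 7120 bp), was not called in either direction. Its counts were 4974 and 5380 in *Tj-Gal4* and 6089 and 4794 in the labelled *Tj>E(Pc) shRNA* libraries, or 1595 and 1252 against 920 and 1313 CPM. The genotypes overlapped, and *Tj>E(Pc) shRNA* 1, the deepest library, was the lowest. The log2 fold change was -0.35 ± 0.28 (SE, adjusted p = 0.340, edgeR quasi-likelihood test), and it was -0.10 with the depth trend removed. The annotated span of *eIF4G2* overlaps those of *CG33111* and *CG34355* in RefSeq, which had at most 520 and 252 counts in any library, and reads that could belong to either gene are at most of that order. The genes nearest to *eIF4G2* in profile, by Euclidean distance over log2(cRPKM + 1) in the 4 libraries, were *CG12362* (distance 0.0770) and *Hsp60D* (distance 0.0863), a chaperonin paralog, among 11163 genes. *CG12362* was at 184 and 147 cRPKM (authors' unit, mean of 2 libraries per genotype) and *Hsp60D* at 188 and 142.

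*eIF4E1* (3L, FBgn0015218, 2054 bp) had 895 and 1065 counts in *Tj-Gal4* and 1242 and 894 in the labelled *Tj>E(Pc) shRNA* libraries, which were 287 and 248 against 188 and 245 CPM. *Tj-Gal4* 2 and *Tj>E(Pc) shRNA* 2 were nearly equal, *Tj-Gal4* 1 stood highest and *Tj>E(Pc) shRNA* 1 lowest. The log2 fold change was -0.31 ± 0.18 (SE, adjusted p = 0.202, edgeR quasi-likelihood test). The paralogs *eIF4E4* (3L, FBgn0035709, 1032 bp), *eIF4E5* (3L, FBgn0035823, 1020 bp) and *eIF4E7* (X, FBgn0040368, 1638 bp) also were highest in *Tj-Gal4* 1 and lowest in *Tj>E(Pc) shRNA* 1. *eIF4E4* was at 230 and 182 CPM in *Tj-Gal4* and 123 and 179 in the labelled *Tj>E(Pc) shRNA* libraries. *eIF4E5* was at 242 and 189 against 131 and 194 CPM, and *eIF4E7* at 303 and 269.9 against 190.3 and 249 CPM. *eIF4E5* overlapped between genotypes, and *eIF4E4* and *eIF4E7* did not, although *eIF4E4* in *Tj-Gal4* 2 and *Tj>E(Pc) shRNA* 2 differed by less than the replicates of a genotype did. Their log2 fold changes were -0.45 ± 0.20 (SE, adjusted p = 0.103), -0.41 ± 0.21 (adjusted p = 0.141) and -0.39 ± 0.18 (adjusted p = 0.123, edgeR quasi-likelihood test for each).

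These negative values lay near those of other genes read as densely. The 1293 genes read at 0.5 to 1 count per base over the 4 libraries, which include *eIF4E4*, *eIF4E5*, *eIF4E7* and *eIF4G2*, had -0.42 as their median log2 fold change, with 235 called lower and 0 called higher. The 1471 genes at 0.3 to 0.5, with *eIF4E1* at the upper end, had a median of -0.28, and the 3484 genes at 0.1 to 0.3, with *eIF4E6*, *eIF4G1*, *eIF4EHP* and *Thor*, a median of 0.17, with 971 called higher and 269 lower. *eIF4E4*, *eIF4E5*, *eIF4E7*, *eIF4G2* and *eIF4E1* thus lay close to the median of their density class, whereas *eIF4E6* and *eIF4G1* lay above theirs and *eIF4EHP* and *Thor* below. With the depth trend removed, which called 25.0% of all genes higher and 21.0% lower, the changes of the 5 dense genes were between -0.21 and -0.10. *eIF4E4* was then called lower, at -0.21 (adjusted p = 0.046, edgeR quasi-likelihood test), beside a median of -0.20 for the densest genes. With occupied positions converted to reads, which called 27.2% higher and 19.8% lower, *eIF4E4* at -0.51 (adjusted p = 0.025) and *eIF4E7* at -0.38 (adjusted p = 0.048) were called lower by the same test, beside a median of -0.45 for the densest genes. Without *Tj>E(Pc) shRNA* 2, the log2 fold changes of *eIF4E1*, *eIF4E4*, *eIF4E5* and *eIF4E7* were -0.51, -0.74, -0.71 and -0.59. Without *Tj>E(Pc) shRNA* 1, the deepest library, they were -0.12, -0.20, -0.15 and -0.20. *eIF4E6* and *eIF4G1* were called higher under both treatments of density, at 0.84 and 0.77 with the depth trend removed and at 0.95 and 0.89 after conversion.

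**Figure D2:**
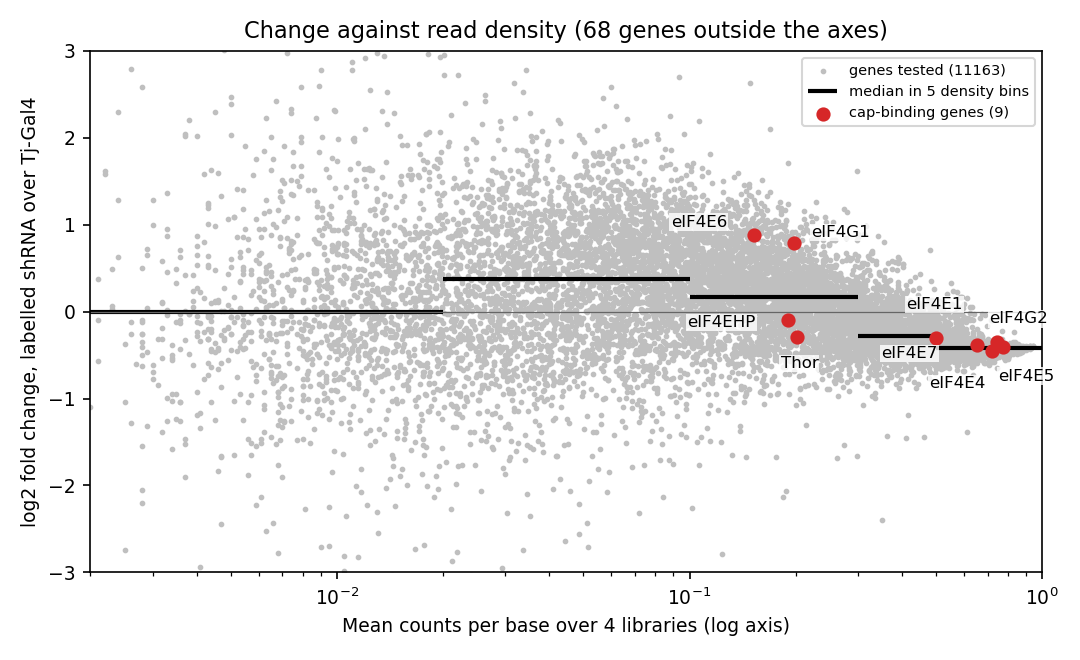
Log2 fold change, labelled *Tj>E(Pc) shRNA* over *Tj-Gal4* (vertical axis), against mean counts per base over the 4 libraries (horizontal log axis) for the 11163 genes tested; black bars are medians in 5 density bins and red points the 9 matched genes. The median is -0.0009 below 0.02 counts per base. From 0.38 at 0.02 to 0.1 the medians fall to -0.42 above 0.5, where *eIF4E4*, *eIF4E5*, *eIF4E7* and *eIF4G2* lie. Outside the axes are 68 genes.

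**Figure D3:**
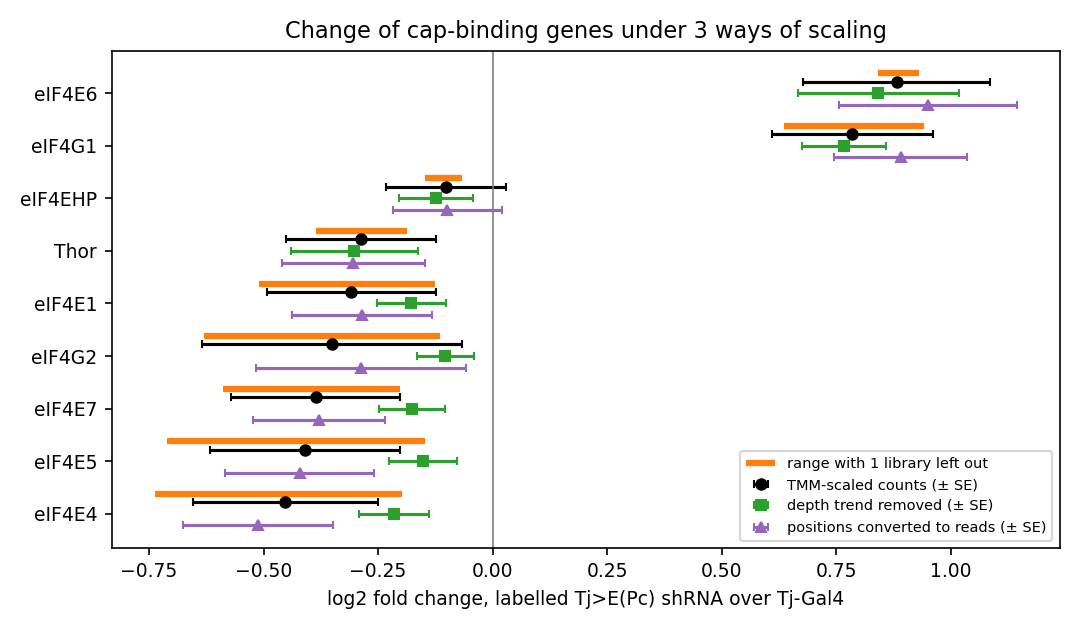
Log2 fold change, labelled *Tj>E(Pc) shRNA* over *Tj-Gal4* (horizontal axis), of the 9 matched genes with TMM-scaled counts, with the depth trend removed and with occupied positions converted to reads; whiskers are ± 1 SE and orange bars the range of TMM-scaled values with 1 library left out. All plotted values of *eIF4E6* and *eIF4G1* lie between 0.64 and 0.95, and *eIF4G2* moves from -0.35 to -0.10 when the depth trend is removed.

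*eIF4EHP*, the cap-binding repressor gene on 3R (FBgn0053100, 2899 bp), had 396 and 566 counts in *Tj-Gal4* and 798 and 440 in the labelled *Tj>E(Pc) shRNA* libraries. In CPM these were 127 and 132 against 121 and 120.5, close together in all 4 libraries. The log2 fold change was -0.10 ± 0.13 (SE, adjusted p = 0.554, edgeR quasi-likelihood test). Its annotated span overlaps those of *Syx1A*, a SNARE protein gene that was called higher at 0.48 ± 0.14 (adjusted p = 0.024), and of *CG10694*, called lower at -0.41 ± 0.13 (adjusted p = 0.034, both edgeR quasi-likelihood test). With 312 to 583 counts in *CG10694* and 167 to 554 in *Syx1A*, a part of the *eIF4EHP* count could belong to either.

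*Thor*, the eIF4E inhibitor gene on 2L (FBgn0261560, 755 bp), had 112 and 174 counts in *Tj-Gal4* and 212 and 112 in the labelled *Tj>E(Pc) shRNA* libraries. In CPM these were 35.9 and 40.5 against 32.03 and 30.7. Both labelled *Tj>E(Pc) shRNA* libraries were lower, by less than 10 CPM, and the log2 fold change of -0.29 ± 0.16 (SE) did not pass the test (adjusted p = 0.183, edgeR quasi-likelihood test). It was -0.30 with the depth trend removed and did not pass the test in any of the alternatives run. mRNA levels do not show the phosphorylation state through which Thor acts.

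Ratios of related genes within a library need no scaling by library size. A ratio of a dense to a sparse gene can still change with depth, since counts of dense genes rose less with it. *eIF4G2* was read at 7.88 and 5.11 times the counts per kilobase of *eIF4G1* in *Tj-Gal4* 1 and 2, and at 2.39 and 3.40 times in the labelled *Tj>E(Pc) shRNA* libraries. The mean ratio was 6.49 against 2.89, the genotypes did not overlap, and the log2 ratio fell by 1.16. Within each genotype the deeper library, *Tj-Gal4* 2 or *Tj>E(Pc) shRNA* 1, had the lower ratio. The part of depth in the difference between genotypes was not tested. With 2 libraries against 2, an exact two-sided permutation test cannot give a p below 0.333, which is the value found. After conversion to reads the ratios were 12.9 and 8.80 against 4.36 and 5.06, a log2 difference of -1.18. Of the pair, *eIF4G1* was called higher, and *eIF4G2*, among the densest genes, did not pass the test. *Thor* was read at 0.34 and 0.45 times *eIF4E1* in *Tj-Gal4* and at 0.47 and 0.34 times in the labelled *Tj>E(Pc) shRNA* libraries. The inhibitor and its target gene kept overlapping ratios, with a log2 difference of 0.03 (exact permutation p = 0.667, 2 libraries against 2), and the direction of this small value depended on the library left out.

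Further ratios were chosen after the values had been seen and are given as a description. *eIF4E6* stood at 0.17 and 0.19 times *eIF4E1* in *Tj-Gal4* and at 0.46 and 0.37 times in the labelled *Tj>E(Pc) shRNA* libraries. The other paralogs changed little against *eIF4E1*, with log2 differences of -0.15 for *eIF4E4*, -0.11 for *eIF4E5* and -0.08 for *eIF4E7*, and 0.21 for *eIF4EHP*. The eIF3 complex, which links eIF4G to the ribosome, also has paralogous subunit genes. *eIF3d2* was read at 4.44 and 3.73 times *eIF3d1* in *Tj-Gal4* and at 1.70 and 1.65 times in the labelled *Tj>E(Pc) shRNA* libraries. *eIF3g2* was read at 3.63 and 3.59 times *eIF3g1* against 1.56 and 1.53 times, and *eIF3f2* at 2.75 and 2.43 times *eIF3f1* against 1.55 and 1.70 times. In each of these 3 pairs and in the eIF4G pair, the ratio of the paralog denser in control testes to the sparser one was lower in both labelled *Tj>E(Pc) shRNA* libraries. *eIF3d1*, *eIF3f1* and *eIF3g1* averaged 37.6, 42.8 and 38.03 cRPKM in *Tj-Gal4*, and *eIF3d2*, *eIF3f2* and *eIF3g2* 154, 111 and 138 cRPKM, so these pairs too combine a dense and a sparser gene. With occupied positions converted to reads the log2 differences of the d, f and g pairs were -1.45, -0.69 and -1.41, and the part of read density in them was not tested further.

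**Figure D4:**
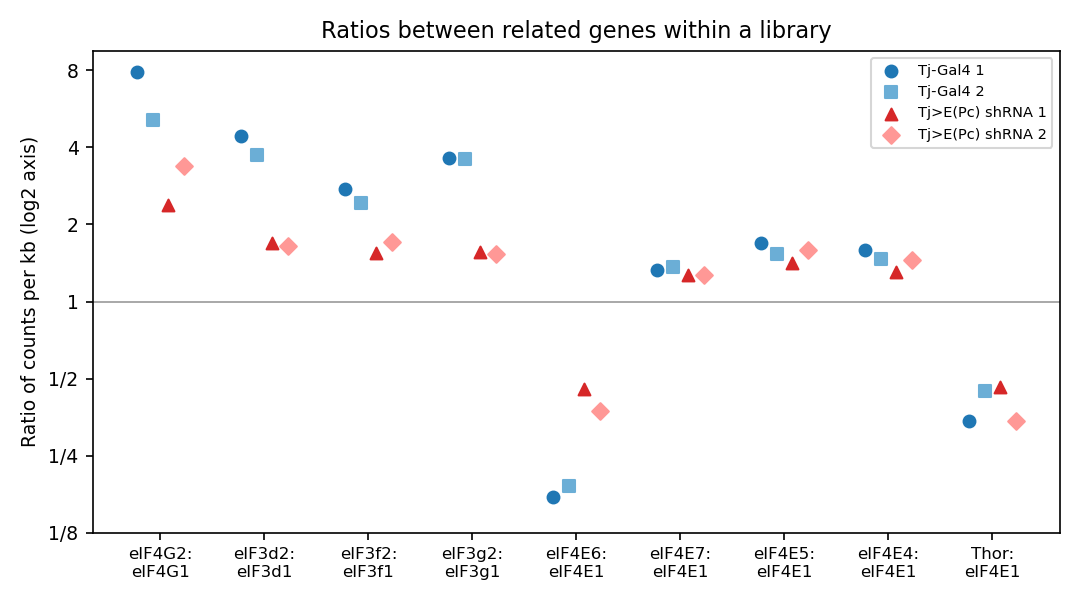
Ratio of counts per kilobase between related genes (vertical axis, log2 scale) in each of the 4 libraries; each point is 1 library and the line marks a ratio of 1. For the eIF4G pair and the 3 eIF3 pairs both labelled *Tj>E(Pc) shRNA* libraries sit below both *Tj-Gal4* libraries (2.39 and 3.40 against 7.88 and 5.11 for *eIF4G2* to *eIF4G1*), for *eIF4E6* to *eIF4E1* they sit above, and *Thor* to *eIF4E1* overlaps.

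Other genes of cap-dependent translation were read from lists, each described by its counts and median. Over all genes tested the median was 0.00, with 22.5% called higher and 11.4% lower. At 0.02 to 0.1 counts per base, 1313 of 3444 genes were called higher, with a median of 0.38. At 0.1 to 0.3, 971 of 3484 were, with a median of 0.17. *eIF4H1*, *brat*, *larp*, *Cbp80* and the eIF2B genes called higher had 0.0153 to 0.26 counts per base in single libraries. The part of read density in the list results was not tested further. Of the partners of eIF4F, 5 were tested, 1 was called higher and 0 lower, and the median log2 fold change was -0.17. The gene called higher was *eIF4H1*, whose product stimulates the eIF4A helicase, at 48.1 ± 7.29 against 105 ± 6.96 CPM (SD, 2 libraries each, with a log2 fold change of 1.11 ± 0.15 SE, adjusted p = 0.000604, edgeR quasi-likelihood test). Of 7 proteins that bind eIF4E or 4EHP or act with them, 2 were called higher and 0 lower, with a median of -0.12. They were *brat*, whose product recruits 4EHP to repress mRNAs in the embryo, at 1.07 ± 0.15 (adjusted p = 0.00091), and *larp*, an RNA-binding protein gene, at 1.06 ± 0.16 (adjusted p = 0.00111, edgeR quasi-likelihood test for both). Of the 2 subunits of the nuclear cap-binding complex, *Cbp80* rose from 17.3 ± 1.82 to 40.6 ± 2.40 CPM, at 1.22 ± 0.19 (adjusted p = 0.00117, edgeR quasi-likelihood test), and *Cbp20* was not called.

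Of 12 tested regulators of TOR signalling and of Thor, 5 were called higher and 0 lower, and the median log2 fold change was 0.31. The list's median density was 0.169 counts per base, and *raptor* and *Tor* had 0.0088 to 0.065 and 0.0247 to 0.134. With the depth trend removed, which called 25.0% of all genes higher, 7 were called higher, with a median of 0.27. *raptor*, the subunit of the TOR complex that presents substrates such as Thor, had the largest rise, from 15.2 ± 1.93 CPM to 44.4 ± 5.00 CPM (SD, 2 libraries each, with a log2 fold change of 1.54 ± 0.20 SE, adjusted p = 0.00049, edgeR quasi-likelihood test). The kinase gene *Tor* rose at 1.10 ± 0.15, the insulin receptor substrate gene *chico* at 0.93 ± 0.14, and *gig* and *Tsc1*, whose products together inhibit TOR, at 1.03 ± 0.14 and 0.54 ± 0.14. Genes that promote TOR activity and genes that restrain it were thus both among the 5. *Thor* itself, the substrate at the end of this list, was not called in either direction.

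Of 13 genes for eIF1, eIF2, eIF2B, eIF5 and eIF6, 4 were called higher and 0 lower, with a median of -0.09. They were 4 of the 5 subunit genes of eIF2B, the exchange factor of eIF2, led by *eIF2Bgamma* at 1.30 ± 0.21 (SE, adjusted p = 0.00135, edgeR quasi-likelihood test). *eIF2Bepsilon*, *eIF2Balpha* and *eIF2Bbeta* rose at 1.13, 0.98 and 0.93, and *eIF2Bdelta* was not called, at 0.05 ± 0.13 (adjusted p = 0.769, edgeR quasi-likelihood test). Of 16 eIF3 subunit genes, 3 were called higher and 1 lower, with a median of -0.10. *eIF3d1* had the largest rise, at 0.82 ± 0.14 (adjusted p = 0.00207), and *eIF3g2* was the gene called lower, at -0.46 ± 0.14 (adjusted p = 0.033, edgeR quasi-likelihood test for both). The call of *eIF3g2* was lost with DESeq2 and with the replicate block, alone or with the length trend removed. *eIF3g1* and *eIF3f1* rose at 0.77 and 0.52. Of 6 regulators of the meiotic divisions, 1 was called higher and 0 lower, with a median of -0.32. It was *Cdk1*, the kinase of mitotic and meiotic entry, at 0.52 ± 0.13 (SE, adjusted p = 0.015, edgeR quasi-likelihood test), and DESeq2 called 0 of the 6.

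**Figure D5:**
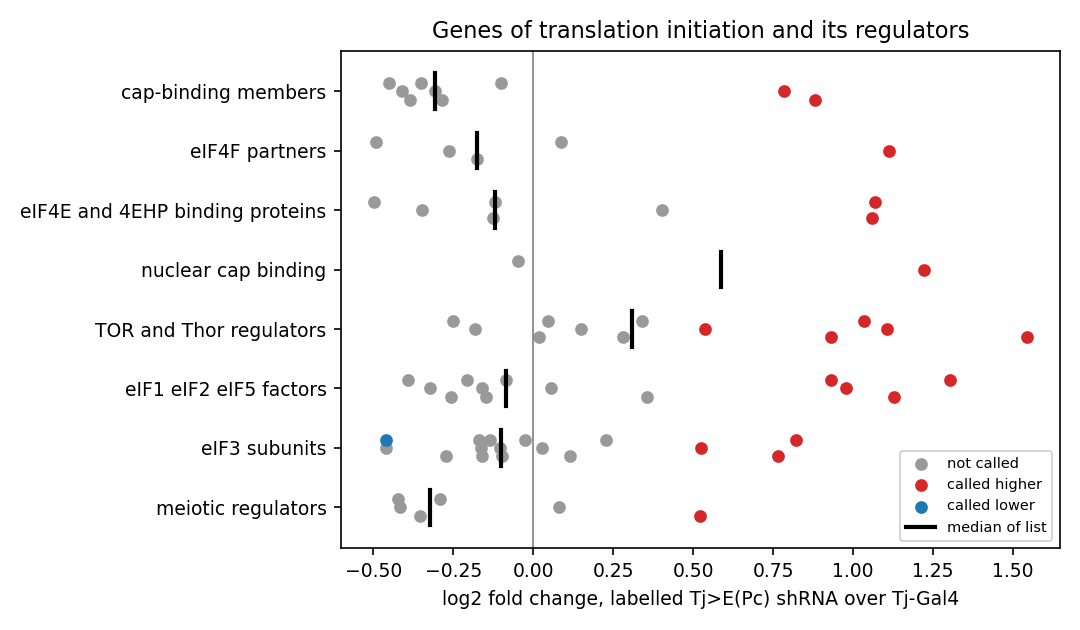
Log2 fold change, labelled *Tj>E(Pc) shRNA* over *Tj-Gal4* (horizontal axis), of the genes tested in each list; each point is 1 gene, red called higher, blue called lower, grey not called, and the bar is the list's median. The cap-binding members have a median of -0.31 with *eIF4E6* and *eIF4G1* apart from the other 7, and the TOR and Thor regulators a median of 0.31 with 5 genes called higher.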

How the data were processed

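The 4 RNA-seq libraries of whole testes were used, and the 4 ChIP-seq samples are not analysed here. The authors aligned 50-nt single-end reads with Bowtie 0.12.7 to the dm3 genome, allowing 2 mismatches and 1 site, and deposited unnormalized counts per gene over merged exons. A read over more than 1 gene was divided between them, although the deposited counts are whole numbers, and whether reads at one position were removed is not given for RNA-seq in the sources used here. The authors also deposited corrected RPKM (cRPKM) from edgeR pseudo-counts for 11773 genes. Of 14256 FlyBase identifiers, 13564 matched a symbol in RefSeq tables. These are on another genome release, so no coordinates are given. No column belonged to an unmapped sample.

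Counts were tested with edgeR 4.0.16 under R 4.3.3 (11163 genes passing filterByExpr, TMM factors, quasi-likelihood F test, Benjamini-Hochberg adjustment over all genes, calls at an adjusted p under 0.05). SEs are the absolute log2 fold change over the square root of F. CPM are scaled by TMM. cRPKM were compared on log2(cRPKM + 1). Ratios had 0.5 added to each count and were compared by exact permutation. The fits were tested on simulated counts of fixed dispersion with no ceiling per base, which does not test them for densely read genes. Replicates of a genotype are separate pairs of testes, and p-values measure the spread between them. Counting error is not the only limit on precision, as reads carried no molecular identifiers and no gene exceeded 1 count per base.

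Alternatives were DESeq2 1.42.0, upper-quartile scaling, library size alone, edgeR's exact test, no filter, at least 10 counts in every library, a replicate block, a loess trend (span 0.3) on gene length or on depth removed, counts per base converted from occupied positions to reads (up to 0.98), each library left out, limma 3.58.1 on log2(cRPKM + 1), and for calls an adjusted p under 0.01 or at least 2-fold change.

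The members and lists were chosen with earlier results of these data known. Named genes are all members, the called gene of each list with the largest rise and fall at a mean cRPKM of at least 1, the genes nearest to *eIF4G2* in profile, genes that overlap a member, and *E(Pc)*. Other genes named in lists, *eIF3f1*, *eIF3g1*, *eIF3d2* and *eIF3f2* among them, were chosen after their values were seen.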

Additional observations from a re-analysis of the deposited data

How the results depend on the processing

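Of the 9 matched genes, *eIF4E6* and *eIF4G1* were called higher under every setting of tool, scaling and filter run except those named here. With the length trend removed, with or without the replicate block, 1 gene was called higher, and with at least 2-fold change 0 were. With 1 library left out, a lone library is assumed to vary like the pair of the other genotype. Log2 fold changes then ranged from 0.84 to 0.93 for *eIF4E6* and from 0.64 to 0.94 for *eIF4G1*. Both calls were lost without either control library, as given above. The count called lower, 0 in the main comparison, was 1 with the depth trend removed and 2 with positions converted to reads. The replicate block left 2 called higher and 0 lower. Deviations of same-numbered libraries correlated at -0.25, and with the numbers crossed, an alternative chosen after seeing the data, 5 members were called lower. The share over all genes was not computed for that setting. The pathway lists' count called lower also rose there, from 1 to 10, so the 5 are not read as a result about the members. Of the lists, the meiotic regulators lost their 1 gene called higher with DESeq2, and *larp* was not called with the length trend removed together with the replicate block. With DESeq2, 4 TOR and Thor regulators and 2 eIF3 subunits were called higher, instead of 5 and 3. The TOR and Thor count was also 4 with the length trend removed, with or without the replicate block. With the depth trend removed these 2 counts rose to 7 and 4. Over all pathway lists, 1 gene was called lower, and the count was 0 with DESeq2 and with the replicate block, alone or with the length trend removed, 2 with the length trend removed, 3 with the exact test, 4 with upper-quartile scaling, 5 with conversion to reads, 7 with the depth trend removed and 10 with crossed numbers. The log2 difference of *Thor* to *eIF4E1* turned from 0.03 to -0.0059 with conversion to reads and ranged from -0.19 to 0.25 with 1 library left out. The log2 difference of *eIF4G2* to *eIF4G1* ranged from -1.47 to -0.84 with 1 library left out. The cause of these changes was not tested. The planned ratio of *eIF4E3* to *eIF4E1* and the genes nearest to *eIF4E3* were not computed, since no row matched *eIF4E3*. *eIF4E6* and *Thor* had the fewest counts of the members, 51 to 189 and 112 to 212 per library.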
